A study of Mus musculus with 8 samples.

Results

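The small RNA library of pre-B cells was compared with that of pro-B cells, the stage before it in the mouse bone marrow. Members were the mouse miRNAs of the deposited table with at least 50 tags over both libraries. Of 1600 rows, 671 were named as mouse miRNAs, 617 of these had a tag in either library, and 291 were members. The cells came from wild-type female C57BL/6 mice aged 8 to 10 weeks, and the sorted cells of 3 mice were pooled for each library. The sort took pro-B cells as B220+IgM-CD43+ and pre-B cells as B220+IgM-CD43-. Where a level is followed further, the library of IgM+CD43- immature cells with B220+ staining and that of mature B cells, which were B220hi with the same IgM and CD43 gates, are given too. Each stage had 1 small RNA library and 1 rRNA-depleted RNA library, so no spread between mice or libraries could be estimated, no test was made, and every difference below is between libraries. In such pooled samples, fewer cells of a type and less RNA per cell cannot be told apart.

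MicroRNAs are short RNAs cut from hairpin precursors. Loaded into an Argonaute protein, they lower the stability and translation of mRNAs that pair with the seed near their 5′ end, and miRNAs with the same seed share many targets. Pro-B cells rearrange the immunoglobulin heavy chain locus, and pre-B cells, which carry a heavy chain, rearrange the light chain loci. Among miRNAs studied in these cells, miR-150 targets Myb, a transcription factor that early B cells need, the miR-17-92 cluster supports survival at this transition, and miR-142 is made throughout the blood lineages.

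Mature sequences of miRNAs that the results turn on were taken from RefSeq (GRCm38.p6). There 241 of the 291 members matched by name, and all 241 were identical to the deposited sequence. No such sequence was at hand for miR-150-5p, miR-34c-5p, miR-375-3p and miR-5099, so none is shown for them. Capitals mark the seed, bases 2 to 8. They are grouped by direction and by shared seed. The first set was higher in the pre-B library, apart from miR-191-5p and miR-16-5p, which lay within 2-fold on the main scaling and are shown as the most abundant miRNA and as the seed partner of miR-15b-5p. The remaining ones were lower, apart from miR-27b-3p, shown because its seed overlaps that of miR-128-3p shifted by a base. The last 5 come from the X-linked cluster that was near 0 in the pre-B library.
miR-142a-5p: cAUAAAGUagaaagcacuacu
miR-191-5p: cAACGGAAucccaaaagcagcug
miR-15b-5p: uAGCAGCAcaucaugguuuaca
miR-16-5p: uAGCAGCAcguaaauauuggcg
miR-374b-5p: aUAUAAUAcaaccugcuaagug
miR-199a-5p: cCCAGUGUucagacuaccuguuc
miR-205-5p: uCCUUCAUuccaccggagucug
miR-216a-5p: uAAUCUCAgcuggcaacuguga
miR-128-3p: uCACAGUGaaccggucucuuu
miR-27b-3p: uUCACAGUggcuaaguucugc
miR-192-5p: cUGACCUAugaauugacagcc
miR-215-5p: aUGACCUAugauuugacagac
miR-10a-5p: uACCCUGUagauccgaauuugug
miR-10b-5p: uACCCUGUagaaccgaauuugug
miR-99a-5p: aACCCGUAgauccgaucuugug
miR-99b-5p: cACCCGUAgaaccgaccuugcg
miR-125a-5p: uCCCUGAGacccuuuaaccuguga
miR-125b-5p: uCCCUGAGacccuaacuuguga
miR-741-3p: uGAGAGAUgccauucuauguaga
miR-871-3p: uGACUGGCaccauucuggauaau
miR-470-5p: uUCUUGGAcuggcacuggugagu
miR-743a-3p: gAAAGACAccaagcugaguaga
miR-743b-3p: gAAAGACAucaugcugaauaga

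The pro-B library held 768752 mouse miRNA tags and the pre-B library 1444396, and the immature and mature B libraries held 2106537 and 1060387. Levels are tags per 1000000 of these totals (CPM). A count of 0 allows up to 3 tags, which is 3.90 CPM in the pro-B and 2.08 CPM in the pre-B library, and a fold against 0 tags is a lower bound against 3. The 95% intervals given with log2 ratios are exact conditional (Clopper-Pearson) intervals. For a miRNA at 0 tags, such an interval can end at a smaller fold than the bound against 3 tags. No molecular identifiers were described, so intervals and floors cover counting error only.

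The labels were checked on marker mRNAs in the rRNA-depleted libraries, which held 867920 estimated counts for pro-B and 240231 for pre-B cells. The 6 pro-B markers summed to 2014 estimated counts in the pro-B and 43 in the pre-B library, or 2321 and 179 per 1000000 estimated counts (CPM of mRNA). Dntt, the polymerase that adds bases at heavy chain joints, had 845 and 0 counts, and Igll1, a surrogate light chain gene, had 427 and 0. Vpreb1 was also at 0 in the pre-B library, where a count of 0 allows up to 12.5 CPM. The 4 pre-B markers summed to 1278 and 1066 CPM. Of these, Rag1, a recombinase gene, was at 918 and 372 CPM, while its partner Rag2 was at 109 and 316 CPM. Vpreb3, at 182 and 295 CPM, and Il2ra, at 68.0 and 83.3 CPM, were also higher in the pre-B library on this scale. The scale mattered: in the deposited FPKM values all 4 were lower in the pre-B library, with Rag2 at 7.41 and 4.21. The pro-B markers were lower in the pre-B library on both scales, at 269 and 2.06 FPKM in sum, as their labels have it.

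Markers of other cells differed as well. The 6 T and NK cell markers summed to 178 counts in the pro-B library, led by Gzma with 106, and all 6 were at 0 in the pre-B library. Cd3e, a defining T cell gene, was at 0 in both. The 5 markers of plasmacytoid dendritic cells, which carry B220, summed to 613 and 133 CPM, led by Bst2, with 3 of the 5 at 0 in the pre-B library. Among these was Siglech, a surface receptor of those cells, with 105 and 0 counts. The 6 neutrophil and myeloid markers, led by Lyz2, were at 1216 and 1336 CPM but at 243 and 74.8 FPKM in sum. The 6 erythroid markers, led by Hbb-bs, were at 429 and 395 CPM and at 108 and 26.5 FPKM. The part of these cells in the miRNA differences was not tested.

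**Figure D1:**
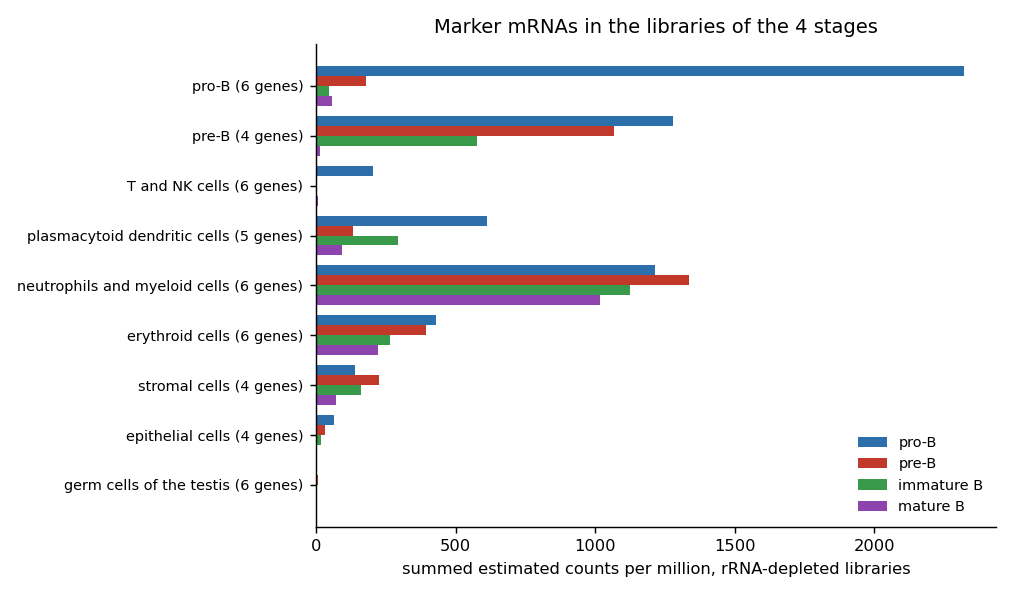
Summed level of each list of marker mRNAs, in CPM of its rRNA-depleted library, with 1 bar per stage. The pro-B markers are at 2321 in the pro-B and 179 in the pre-B library, and the T and NK cell markers at 205 and 0.

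The pre-B library held more miR-142a-5p than the pro-B library and less miR-150-5p, miR-128-3p, miR-99, miR-125 and miR-10, while miR-215-5p and a testis-enriched cluster of the X chromosome were near 0 in it. Among the 10 most abundant miRNAs of each library, others such as miR-181a-5p and miR-26a-5p lay within 2-fold. Of the 291 members, 17 were at least 2-fold higher in the pre-B library (5.84%) and 111 at least 2-fold lower (38.1%), together 44% of members, and 163 lay within 2-fold. The median log2 ratio (pre-B over pro-B) was -0.71, and 215 members lay below 0. The scaling set this split. TMM factors moved the median by 0.59 to -0.13, with 43 higher and 66 lower, and median-of-ratios factors moved it by 0.72 to 0.01, with 56 higher and 60 lower. All 17 higher miRNAs remained higher under both, and 66 and 60 of the 111 lower ones remained lower. Each list below is therefore read against the median of all members. Its counts on the main scaling are to be read against 5.84% higher and 38.1% lower. Counts with TMM factors are to be read against 43 higher and 66 lower of 291, and those with median-of-ratios factors against 56 and 60. Where the sign of a list's median depends on the scaling this is said.

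**Figure D2:**
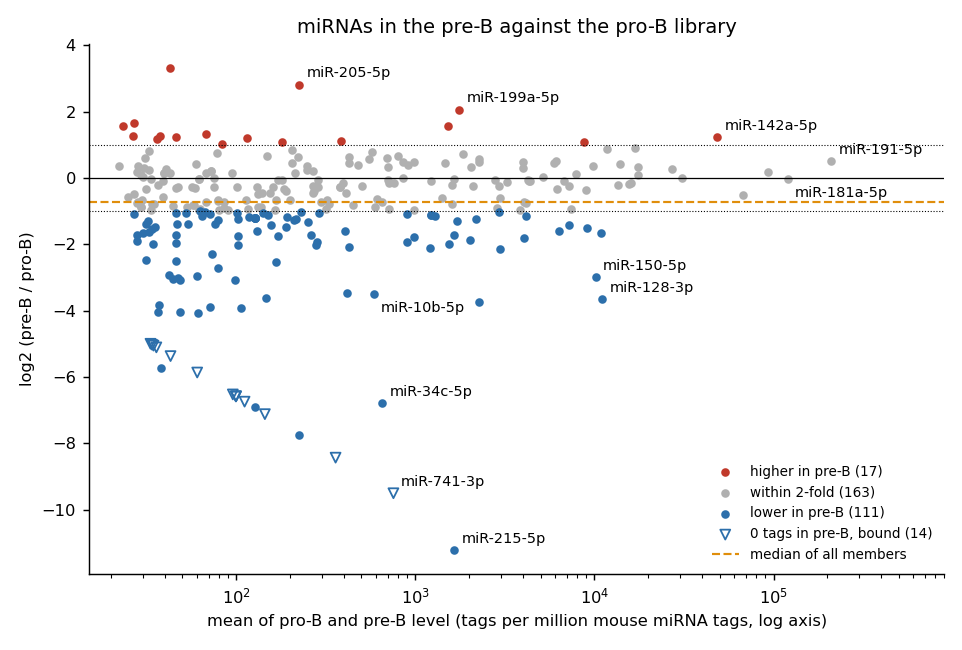
The log2 ratio of pre-B to pro-B level for the 291 members against their mean level (log axis), both from tags per 1000000 mouse miRNA tags, with 1 point per miRNA. Open triangles are the 14 members with 0 tags in the pre-B library, drawn at the bound against 3 tags, and the dashed line is the median of -0.71.

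The split went with abundance. The median was -0.95 in the 164 members with 50 to under 500 tags and -0.42 in the 76 with 500 to under 5000. It was -0.16 in the 44 members with 5000 to under 50000 tags, and 0.18 in the 7 with more. The 10 most abundant miRNAs took 60.1% of the pro-B and 70.7% of the pre-B tags. The members at least 2-fold lower held 16.1% of the pro-B and 4.11% of the pre-B tags, and those at least 2-fold higher 3.67% and 8.71%. Of the summed gains in CPM, 61.5% belonged to miR-191-5p and miR-142a-5p.

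The leading ranks were shared. MiR-191-5p was first in both, at 173792 CPM in the pro-B and 245768 CPM in the pre-B library. MiR-181a-5p, which tunes antigen receptor signalling and is abundant in developing lymphocytes, was second in both, at 121001 and 119268 CPM. MiR-26a-5p followed in both, at 87224.5 and 98497 CPM. These 3 lay within 2-fold between libraries, as did let-7f-5p (30792 and 30464 CPM), miR-27b-3p (24696 and 29819 CPM), miR-30e-5p (15390 and 19505 CPM) and miR-484 (16917 and 17924 CPM). With TMM factors miR-191-5p was past 2-fold, at a log2 ratio of 1.09 in place of 0.50, and with median-of-ratios factors miR-191-5p, at 1.22, and miR-30e-5p, at 1.06, were. MiR-92a-3p, of the miR-17-92 cluster, was at 78960 and 55407 CPM, a log2 ratio of -0.51 that was 0.08 with TMM factors.

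The 3 miRNAs that mark the comparison went in different ways over the stages. MiR-142a-5p had 22283 tags in the pro-B and 98531 in the pre-B library, or 28986 and 68216 CPM, a log2 ratio of 1.23 (1.21 to 1.26). It was at 106667 CPM in the immature and 136933 CPM in the mature B library, so each later library was higher than the one before. MiR-150-5p had 13865 and 3261 tags, or 18036 and 2258 CPM, a log2 ratio of -3.00 (-3.05 to -2.94). It was at 11892 CPM in the immature and 182070 CPM in the mature B library, so the pre-B library held the lowest of the 4 levels. MiR-215-5p had 2530 and 2 tags, or 3291 and 1.38 CPM, a log2 ratio of -11.21 (-14.26 to -9.36). The immature B library held 1 tag and the mature B library 718 tags, or 677 CPM, so it was near 0 in the middle libraries and present in the outer ones. With TMM factors the 3 log2 ratios were 1.82, -2.41 and -10.63.

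**Figure D3:**
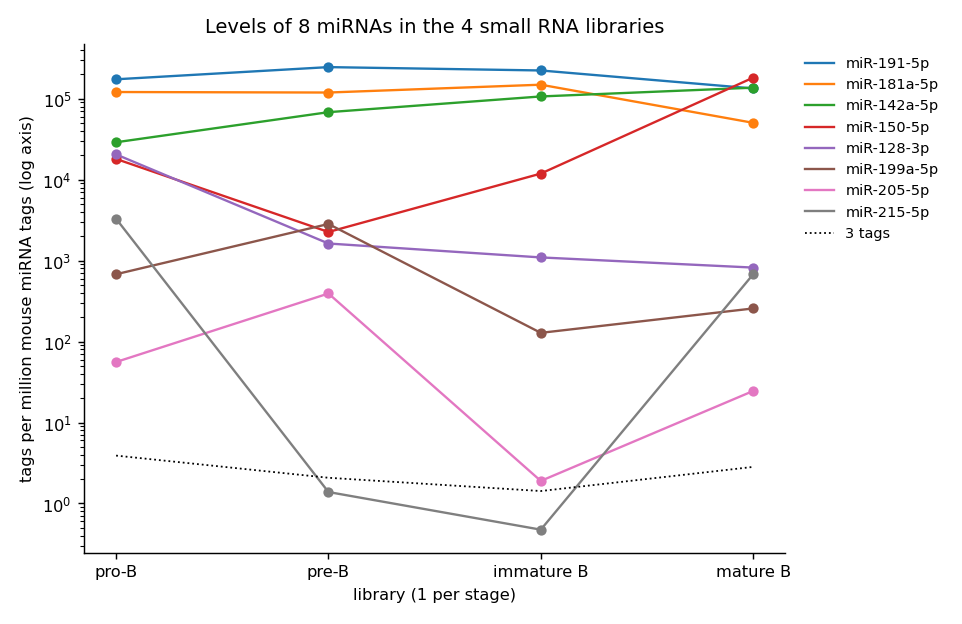
Levels of 8 miRNAs in the 4 small RNA libraries, in tags per 1000000 mouse miRNA tags on a log axis, with 1 library per stage and the dotted line at 3 tags. The pre-B library holds the lowest miR-150-5p level, at 2258, and the highest miR-199a-5p level, at 2836.

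Among the miRNAs higher in the pre-B library were several known from other tissues. MiR-199a-5p, made by mesenchymal cells, was at 679 and 2836 CPM, a log2 ratio of 2.06 (1.93 to 2.20), and at 128 and 257 CPM in the immature and mature B libraries. MiR-205-5p, an epithelial miRNA, had 43 and 567 tags, then 4 and 26, with a log2 ratio of 2.81 (2.36 to 3.29). MiR-216a-5p, known from the pancreas, had 6 and 112 tags, and 0 in both later libraries, with a log2 ratio of 3.31 (2.15 to 4.79). These 3 were highest in the pre-B library, but others of their lists were lower in it than in the pro-B library. Among these were miR-145a-5p (-2.02) of the stromal list, miR-200a-3p (-1.26) and miR-141-3p (-1.42) of the epithelial list, and miR-375-3p of the list with pancreas miRNAs. MiR-374b-5p was at 771 and 2284 CPM, a log2 ratio of 1.57 (1.44 to 1.69), and at 1999.96 CPM in the immature B library. MiR-15b-5p, of a family that restrains the cell cycle, was at 5609 and 11846 CPM, a log2 ratio of 1.08 (1.03 to 1.13). MiR-5120 (1.11) was also past 2-fold among members with at least 500 tags, whereas let-7a-5p (0.90), miR-25-3p (0.88), miR-1198-5p (0.78), miR-100-5p (0.72), miR-19b-3p (0.65) and miR-148b-3p (0.64) were not, though these 6 were with TMM factors. The other higher members had fewer tags and ran from miR-5128 at 1.65 to miR-106a-5p at 1.02. For 6 of the 17, the counting interval lay past 2-fold.

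The 29 listed lymphoid miRNAs were all in the table, and of 27 members 1 was higher, 11 were lower and 15 lay within 2-fold, with a median log2 ratio of -0.76 against -0.71 for all members. With TMM factors 3 were higher and 5 lower, beside 43 and 66 of all 291 members. The higher one on the main scale was miR-142a-5p. MiR-128-3p had 15769 and 2350 tags, or 20512.5 and 1627 CPM, and was at 1095 and 820 CPM in the later libraries. Its log2 ratio was -3.66 (-3.72 to -3.59), so the pro-B library stood alone. MiR-146b-5p, which dampens inflammatory signalling, was at 3175 and 868 CPM (-1.87), while its seed partner miR-146a-5p was at 6894 and 5426 CPM (-0.35). MiR-21a-5p was at 13463 and 4746 CPM, and its log2 ratio of -1.50 was -0.92 with TMM factors. MiR-29a-3p (-1.03) and miR-29b-3p (-1.96), which repress collagen genes, were also lower, the former within 2-fold with TMM factors. MiR-155-5p, induced in activated B cells, had only 85 and 133 tags (-0.26). MiR-139-5p, outside this list, was at 9765 and 5112 CPM (-0.93).

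Of 19 members of miR-17-92, tied to proliferation, and its paralogous clusters, 1 was higher, 1 lower and 17 within 2-fold. Their median was 0.39. With TMM factors 9 were higher and 0 lower, beside 43 and 66 of all 291 members. MiR-17-5p was at 823 and 1138 CPM (0.47), and miR-19b-3p at 623 and 977 CPM. The sum over the list, most of it miR-92a-3p, went from 95940 to 81815 CPM, a log2 ratio of -0.23 that was 0.36 with TMM factors. The 7 members of the miR-15 and miR-16 family had a median of 0.09, and the 9 let-7 family members, which repress cell cycle and growth genes, a median of 0.11. Medians of these 3 lists were above 0 under both other scalings too. The 9 members of the miR-23, miR-24 and miR-27 clusters (-0.11), the 7 of the miR-26 and miR-30 families (-0.15) and the 3 of the miR-130 and miR-301 family (-0.45) had medians below 0 that were above 0 with TMM and median-of-ratios factors.

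In the miR-99, miR-100 and miR-125 family, known from stem and progenitor cells, 4 of 5 members were lower, with a median of -1.58, and with both TMM and median-of-ratios factors 2 were lower and 1 higher. MiR-125b-5p was at 10488 and 3916 CPM (-1.42), and at 621 and 1823 CPM in the immature and mature B libraries. MiR-99a-5p was at 9449 and 3153 CPM (-1.58). These 2 were within 2-fold with median-of-ratios factors, at -0.70 and -0.86, and with TMM factors, whereas miR-125a-5p (-2.00) and miR-99b-5p (-1.78) remained past it. The exception was miR-100-5p, which has the miR-99 seed, at 1388 and 2293 CPM. All 3 members of the miR-10 and miR-196 list, whose genes lie in the Hox clusters, were lower, with a median of -3.07. MiR-10a-5p was at 6304 and 1797 CPM (-1.81), and miR-10b-5p, with the same seed, at 1074 and 95.5 CPM (-3.49). All 3 members of the miR-192, miR-194 and miR-215 list were lower too. MiR-192-5p, which shares its seed with miR-215-5p, was at 4825 and 1101 CPM (-2.13), and the seed went from 8116 to 1102 CPM in sum.

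The lowest list was the testis-enriched X-linked cluster, miRNAs made in male germ cells. Of 38 listed names 20 were in the table and 13 were members, and all 13 were lower, with a median of -6.58 that includes bounds. All 13 reached 50 tags through the pro-B library alone, so the threshold itself favoured a lower pre-B level. Their summed level, with the 7 under 50 tags, was 4325 CPM in the pro-B, 2.08 in the pre-B, 0 in the immature and 905 in the mature B library. MiR-741-3p had 1159, 0, 0 and 372 tags in the order of the stages. Against 3 tags it was at least 726-fold lower in the pre-B than in the pro-B library. Its counting interval ended at a log2 ratio of -9.20. MiR-871-3p had 551, 0, 0 and 116 tags, at least 345-fold lower against 3 tags, with an interval that ended at -8.13. MiR-470-5p had 342, 3, 0 and 95 tags, with a log2 ratio of -7.74 (-10.03 to -6.18). All 13 were at 0 to 3 tags in the middle libraries and above that in the outer ones. Of the 13, 12 lie in a block of 62362 bases on the X chromosome, chrX:66776760-66839121 in RefSeq GRCm38.p6. The 3 rows of miR-465a-3p, miR-465b-3p and miR-465c-3p share a sequence and had the same 153 pro-B tags, so they are not separate measurements.

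In all, 18 members had 0 to 3 tags in the pre-B library, 5 of them outside this list. Besides miR-215-5p these were miR-375-3p, an endocrine miRNA (193, 3, 10 and 71 tags), miR-34b-3p (57, 2, 0 and 20), miR-202-5p, a gonadal miRNA (66, 0, 0 and 14), and miR-128-2-5p (93, 0, 2 and 0). MiR-34c-5p, abundant in testis and in ciliated epithelia, had 994, 17, 2 and 300 tags, a log2 ratio of -6.78 (-7.56 to -6.09). All 3 members of its family list were lower, and 2 of them with TMM factors, where miR-34a-5p was within 2-fold. The 18 members at 0 to 3 pre-B tags reached 50 tags through the pro-B library alone, so a lower level in any other library is favoured by the threshold. The 6 germ cell mRNAs of the testis summed to 1, 2, 0 and 2 counts in the rRNA-depleted libraries, with Prm2, Tnp1, Ldhc and Acrv1 at 0 in all 4. A count of 0 in those libraries allows up to 3.46, 12.5, 13.4 and 3.53 CPM of mRNA in the order of the stages. All mice were female, and the source of the testis-enriched miRNA tags was not tested. With the X-linked list left out of the members and the totals, 17 members were higher and 98 lower.

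**Figure D4:**
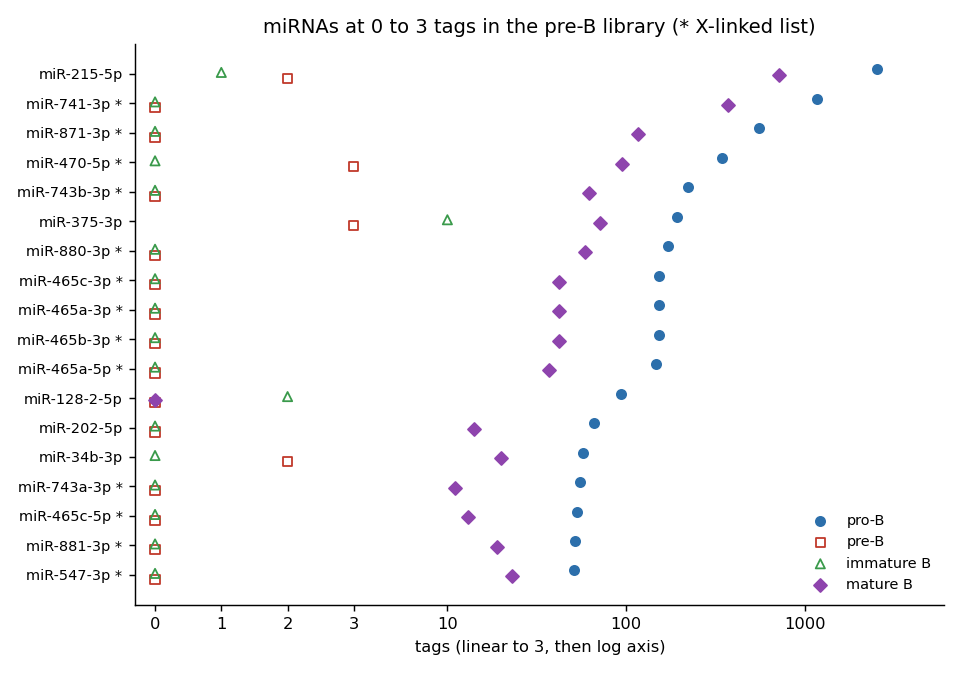
Tags of the 18 members with 0 to 3 tags in the pre-B library, in each of the 4 small RNA libraries (axis linear to 3, then log), with a star at the 13 names of the X-linked list. The pro-B and mature B points lie apart from the pre-B and immature B points in 17 of 18 miRNAs, the exception being miR-128-2-5p, with 0 mature B tags. The gap between the pro-B and pre-B points follows from how the 18 were chosen.

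Lists of miRNAs from other cell types were mixed. Of 4 erythroid members 3 were lower, such as miR-451a with 121 and 68 tags (-1.74), and miR-144-3p was higher (1.07), and with TMM factors 1 was lower. Among the lower ones, miR-486a-5p and miR-486b-5p had 1288 and 1282 pro-B tags and the same 1107 pre-B tags. They may therefore not be separate measurements. The myeloid miR-223-3p was at 308 and 152 CPM (-1.02), within 2-fold with TMM factors (-0.44), and the direction of the myeloid mRNAs above depended on the scale. Both endothelial members were lower, with miR-126a-3p at 1220 and 573 CPM (-1.09), within 2-fold with TMM factors. Of 7 stromal and smooth muscle members, 2 were higher and 3 lower. These were the 5p arms of miR-199a and miR-199b on the higher side, and on the lower side miR-143-3p, at 5714 and 2576 CPM (-1.15), with both arms of miR-145a. The median of this list, -0.26, was above 0 under the other scalings, and 1 member was lower with TMM factors. The 4 stromal mRNAs, led by Col1a2, were at 141 and 225 CPM but at 4.19 and 1.71 FPKM in sum.

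Of 9 epithelial members 2 were higher, miR-205-5p and miR-96-5p, and 4 lower, including miR-200b-3p (-1.58). Of all 291 members, 5.84% were higher and 38.1% lower. The list median was -0.95 against -0.71 for all members, and the 4 lower epithelial ones were within 2-fold with TMM factors. The 4 epithelial mRNAs, led by Cdh1, were at 65.7 and 33.3 CPM in sum. Cdh1, the cadherin of epithelia, was at 49.5 and 0 CPM, while Epcam was at 9.22 and 24.98 CPM, from 8 and 6 counts. In FPKM Epcam was at 0.84 and 0.6, so its direction depended on the scale. MiR-122-5p, the main miRNA of hepatocytes, was at 11954 and 15915 CPM, and at 1091 and 1972 CPM in the later libraries, so it was high in both libraries compared. The 6 members of that liver, muscle, neuron and pancreas list had a median of -0.44, above 0 under the other scalings. Of the imprinted Dlk1-Dio3 cluster, 22 names were in the table and miR-127-3p was the only member, with 586 and 100 tags, then 61 and 390 (-3.46). The part of other cell types in these values was not tested.

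The 12 miRBase entries that other studies trace to repeats or other RNA classes were all members, 2 higher and 10 lower, with a median of -3.41. MiR-690 had 3231, 454, 37 and 51 tags (-3.74), and miR-5099 12780, 7559, 4834 and 13634 tags (-1.67). With median-of-ratios factors miR-5099 was within 2-fold, at -0.94, and 9 entries were lower. MiR-1983 and miR-5128 were the higher ones. With these entries left out of both the members and the totals, which changes the scaling too, 14 members were higher and 102 lower. Lower members outside the lists with at least 500 tags included miR-151-5p, at 1958 and 450 CPM (-2.12), and miR-3535, at 686 and 163 CPM (-2.08).

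**Figure D5:**
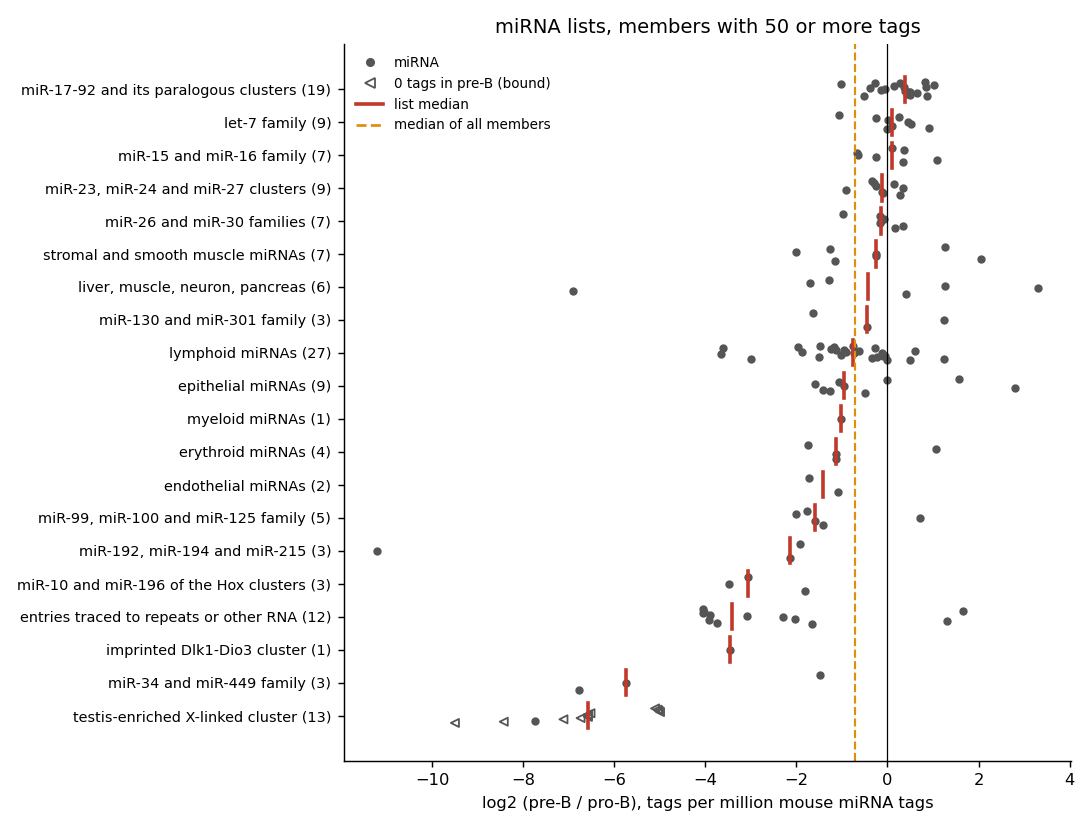
The log2 ratio of pre-B to pro-B level for the members of each list, with 1 point per miRNA, open triangles for 0 tags in the pre-B library, red bars for list medians and a dashed line at the median of all members, -0.71. List medians run from -6.58 for the X-linked cluster to 0.39 for miR-17-92 and its paralogs, and the miR-23, miR-26, miR-130, stromal and liver lists have medians below 0 that are above 0 under the other scalings.

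Both arms of 56 hairpins were members with tags in both libraries. The log2 ratios of the 5p and 3p arms differed by 0.63 in the median, and by at least 1 in 12 hairpins. Pearson's r between arms was 0.53 across these hairpins, which share libraries and are not replicates. Both arms were lower by 2-fold in 8 hairpins, among them miR-150, whose 3p arm had 207 and 32 tags (-3.60). The arms of miR-142a were at 1.23 and 0.60. The arms parted in miR-199a, where the 5p arm was at 2.06 and the 3p arm, with 319 and 500 tags, at -0.26, and that 3p row has the sequence and counts of the miR-199b one. They also parted in miR-15b, at 1.08 and -0.65. For miR-128, the 5p arm miR-128-2-5p had 93 and 0 tags, at least 58.2-fold lower, while miR-128-1-5p, from the other miR-128 gene, had 27 and 31 tags (-0.71).

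The members held 283 distinct sequences with 222 seeds, and 34 seeds occurred in at least 2 sequences. In 18 of these all members were below 0, in 4 all above 0, and in 12 they differed in sign, on the main scaling. The seed of miR-15b-5p and miR-16-5p had 5 members and went from 14732 to 23246 CPM in sum, and that of let-7 had 9 and went from 68866 to 82887 CPM. The seed of miR-181a-5p had 4 members, at 138158 and 133297 CPM in sum. The median GC content was 47.6% in the higher, 47.8% in the middle and 47.6% in the lower class, the median length was 22 in each, and Pearson's r of GC content with the log2 ratio was -0.01 across 291 members. The first base was U in 6 of 17 higher, 69 of 163 middle and 53 of 111 lower members. It was C in 7 of the higher (41.2%), 35 of the middle (21.5%) and 17 of the lower members (15.3%).

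The host genes of intronic miRNAs were read in the rRNA-depleted libraries. The 37 listed miRNAs were all members, with 33 hosts, of which 32 had a lower FPKM in the pre-B library. That share is to be read against 85.9% of the 13630 genes with an FPKM above 0 in either library. In CPM of estimated counts, 24 hosts were lower and 9 higher, against 60.8% of genes lower, so the direction of a host could depend on the scale. Arpp21, which hosts a miR-128 gene, was at 10.98 FPKM in the pro-B library and listed at 0 in the other 3, and miR-128-3p was lower in those libraries as well. Pde2a, the host of miR-139, was at 67.9 and 1.48 FPKM, while miR-139-5p was at -0.93 on the log2 scale. Mcm7, the host of miR-25, miR-93 and miR-106b, was at 4.22 and 0 FPKM, and Smc4, the host of miR-15b, at 6.11 and 0.89. Those 4 hosts were lower in CPM too, whereas miR-25-3p and miR-15b-5p were above 0 on the log2 scale, opposite to their hosts. For Mcm7 this rests on 17.31 and 0 estimated counts, or 19.9 CPM against a 0 that allows up to 12.5 CPM. Dalrd3, the host of miR-191, was at 6.66 and 2.09 FPKM but at 48.3 and 55.7 CPM, so its direction depended on the scale.

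Tags that the deposited table assigned to miRNA names of other species gave a further reading from the same libraries. Rows sharing bases 2 to 16 with a member and holding at least 50 tags made 123 pairs over 98 members. In 48 pairs the mouse member was past 2-fold, and the other row had the same sign in 43 and was past 2-fold the same way in 22. The mouse member was lower in 45 of these 48, and the other row was below 0 in 80.5% of all 123 pairs, so a shared sign is common among them. The pairs are not separate measurements, since they hold 101 distinct other rows and a single row made up to 6 pairs. The miR-128-y row had 1184 and 203 tags (-3.45), the miR-150-x row 111 and 29 (-2.85), and the miR-15-x row 24 and 100 (1.15). The miR-142-x row had 4236 and 13416 tags, a log2 ratio of 0.75. The miR-3969-z row, also paired with miR-142a-5p, had 25 and 41 (-0.20). Rows named miR-215 were paired with miR-192-5p and were not near 0 in the pre-B library. Their bases 2 to 16 are those of miR-192-5p and differ from those of mouse miR-215-5p, so they do not read that miRNA. The miR-215-x row had 75 and 100 tags (-0.49), and the miR-215-z row 33 and 41 (-0.60). Others went apart: the miR-126-y row had 25 and 119 tags (1.34) against -1.09 for miR-126a-3p, and the miR-21-x row 437 and 865 (0.08) against -1.50 for miR-21a-5p.

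At the threshold of 50 tags, the members just inside were miR-3074-1-3p, with 15 and 36 tags (0.35), miR-547-3p, with 51 and 0, and miR-450b-3p, with 34 and 17 (-1.91). Just outside, at 49 tags, were miR-324-3p, with 23 and 26 (-0.73), miR-214-3p, with 29 and 20 (-1.45), and miR-143-5p, with 10 and 39 (1.05).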

How the data were processed

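Per the labels and methods, RNA of 18 to 30 nt was gel-selected and sequenced, and the authors matched tags to miRBase and called further candidates with mirdeep2. The deposited tag counts are not normalised, and the deposited TPM values are tags per 1000000 clean tags, with 0.01 for 0. The submitters' processing notes name Bowtie 0.12.2 and build mm9. For the rRNA-depleted libraries the authors deposited estimated counts and FPKM values, used here for marker and host genes only. Tag counts of mouse rows were scaled to CPM of their column total, with 3 tags in place of 0, and a difference of at least 2-fold was counted. The libraries carried 926605 (pro-B) and 1673129 (pre-B) tags over all rows. Named miRNAs were the 3 markers, the 10 highest in each library, the 12 largest folds each way among members with at least 500 tags, the 8 largest differences in CPM each way, and list members. Members and lists were chosen with earlier results of these data known. Other scalings used edgeR 4.0.16 (TMM) and DESeq2 1.42.0 (median of ratios), in R 4.3.3. Other steps used Python 3.11.15 and scipy 1.17.1, tested on simulated counts. Circular and long noncoding RNA tables were not used here.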

Additional observations from a re-analysis of the deposited data

Results flagged for a closer look

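Some rows of the table that entered no comparison held tags in 1 of the libraries compared and 0 to 3 in the other, past what a count of 0 allows. Rows named miR-430, a family known from fish embryos, showed this in the pro-B library: miR-430-y had 1218 tags there and 1587 in the mature B library, and miR-430-x had 112 and 161. Both had 0 or 1 tag in the pre-B and immature B libraries. The row miR-6131-z had 48 pro-B and 19 mature B tags. In the pre-B library, miR-8159-x had 106 tags and miR-462-x had 102, with 5 and 6 in the mature B library and 0 in the pro-B library. What these rows share with the mouse miRNAs at 0 to 3 pre-B tags was not tested.

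Rows named after miRNAs of other species held 156363 tags in the pro-B and 228192 in the pre-B library, and mirdeep2 candidates 1490 and 541.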

How the results depend on the processing

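No paired analysis was possible because each stage had 1 library. Against 17 higher, 111 lower and a median of -0.71, TMM factors gave 43, 66 and -0.13, and median-of-ratios factors 56, 60 and 0.0081, so the median changed sign. A minimum of 10 tags gave 26 and 170, 500 tags gave 6, 34 and -0.25, and 1 tag gave 28, 231 and -0.88, where rows with at most 3 tags in both libraries were left out. A 1.5-fold threshold gave 30 higher and 158 lower, and 4-fold gave 3 higher and 48 lower. Requiring the counting interval past 2-fold gave 6 higher and 76 lower. The cause was not tested, except that the fold thresholds and minimum tags change what is counted by construction. Scaling to all rows or to clean tags, counting shared sequences as 1, and leaving miR-191-5p out of the totals kept both counts within 1.5 times, with 17 to 19 higher and 96 to 104 lower, and so did leaving out the X-linked list or the repeat entries, both chosen after seeing the data. Of 22 of the 37 miRNAs named by level or fold that were past 2-fold, 19 remained so with TMM and 18 with median-of-ratios factors, and none of the 22 changed sign under either. Reading host genes in CPM of estimated counts in place of FPKM, also chosen after seeing the data, gave 24 lower and 9 higher in place of 32 and 1. The depth of the pre-B mRNA library, 240231 counts, limits what its zeros show.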

Other observations

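The passenger arms of miR-181 were abundant in the early libraries. MiR-181a-1-3p was at 3575, 4434, 3613 and 426 CPM in the pro-B, pre-B, immature and mature B libraries, and miR-181a-2-3p at 1808, 2699, 1539 and 349.9 CPM. MiR-181b-5p, at 14510.5, 12431, 11061 and 1348 CPM, and miR-181d-5p, at 1707, 1112, 1137 and 67.9 CPM, also had their lowest level in the mature B library. These names were chosen after their values were seen, apart from the listed miR-181b-5p and miR-181d-5p.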
